A study of Mus musculus with 12 samples.

Results

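Integrins are the cell surface receptors, and laminins among the main matrix proteins, through which cells hold on to the extracellular matrix. The genes described here are 36 of the 21937 in the table, chosen by symbol, with 1 matching symbol left out by the rule and with earlier results of these data known: 17 integrin alpha chain genes, 8 integrin beta chain genes and 11 laminin chain genes. Their RNA was measured by sequencing in a light membrane fraction of brain enriched in myelin, the sheath that oligodendrocytes form around axons. All samples came from male wild type (WT) c57Bl6/N mice, an inbred laboratory strain, with no treatment named, aged 18 days (P18), 75 days (P75), 6 months or 24 months. Each age had 3 samples, 12 in all. The labels do not say whether the 3 samples of an age came from separate animals or pooled brains, so the p-values reflect only how these samples vary, which may be technical.

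An integrin is a pair of 1 alpha and 1 beta chain that spans the membrane, binds a ligand outside the cell and, through talin and kindlin, ties it to actin and to kinases inside. A laminin is a cross-shaped trimer of 1 alpha, 1 beta and 1 gamma chain and a main component of basement membranes, which in the brain surround blood vessels. In oligodendrocytes, laminin contact through integrins that hold the Itgb1 chain is known to promote survival and myelination. The laminin made with the Lama2 chain is the best known brain laminin in this setting, since its loss in humans causes a muscular dystrophy with white matter changes.

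The libraries held 20299052 to 27214385 reads in genes, of which the 36 genes took 5878 to 13060. All 12 markers of mature oligodendrocytes were detected in every age, and their summed share of the normalised counts was 11.1 to 23.2% for P18, 5.75 to 8.18% for P75, 6.34 to 9.89% for 6 months and 6.46 to 8.69% for 24 months. Most of this sum was Mbp, the gene of myelin basic protein. The fraction also held RNA of other cells. Neuronal markers took 0.715 to 1.122% of counts in single libraries, astrocyte markers 0.514 to 0.711% and endothelial markers 0.00385 to 0.00580%. These sums depend on which genes each list holds, so they do not compare the amounts of RNA from these cell types. The first principal component set P18 (-57.5 to -54.7) and P75 (-22.7 to -15.5) apart from each other and from the later ages, while 6 months (33.3 to 44.6) and 24 months (33.1 to 43.1) overlapped on it. The second set P18 and 6 months (16 to 29.15) apart from P75 and 24 months (-37.9 to -6.90). P18 replicate 3 lay apart on the third component, at -24.3 against 3.59 and -0.61 for the other P18 libraries. In bulk RNA of this kind, fewer cells of a type and less RNA per cell cannot be told apart.

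Summed together, these genes were more abundant in older myelin fractions. The summed normalised count of the 36 genes, in reads divided by the size factor of each library, was 6685 ± 569.7 for P18, 8196 ± 289 for P75, 10186 ± 471 for 6 months and 11199.9 ± 626 for 24 months (mean ± SD, n = 3 at each age). The 25 integrin genes accounted for 5454 ± 643 for P18, 6402 ± 273 for P75, 8350.1 ± 421 for 6 months and 9199 ± 535 for 24 months. The 11 laminin genes accounted for 1231 ± 77.000 for P18, 1795 ± 41.3 for P75, 1836 ± 136 for 6 months and 2001 ± 97.7 for 24 months. The lowest of the 24 month libraries held 10487 counts of the 36 genes and the highest of the P18 libraries 7042, so these ages did not overlap. Much of the gain lay in Itgav, with means of 1055 at P18 and 2789 at 24 months, and Itgb5, with 479 and 1309. Single genes differed, as given below.

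To be tested, a gene needed a value of 10 or more in at least 3 samples, and 33 of the 36 genes had one. The 3 below this were Itga2 (collagen binding), with 0.930 to 4.32 normalised counts, Itgb6 (an epithelial chain), with 0.930 to 7.74, and Itgal (the leukocyte chain that binds ICAM proteins), with 2.97 to 14.7. Differences below are limma estimates on the scale log2(value + 1), older age minus younger age, with their standard error, and adjusted p-values are Benjamini-Hochberg values over all 14987 genes tested, with a threshold of 0.05. Of the 33 genes, 30 differed between ages by the F test, against 77.4% of all genes. Of these 30, 14 had their highest mean at 24 months, 5 at 6 months, 8 at P75 and 3 at P18. No such count over all genes is given here, so it cannot be read as particular to these genes.

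Read against the whole table, the genes leaned towards higher values at older ages. At P75 against P18, 16 of the 33 genes rose and 3 fell, where 40.4% of all genes were called, 21.7% upwards and 18.7% downwards. At 6 months against P75, 13 rose and 8 fell, where 52.4% of all genes were called, 27.1% upwards and 25.4% downwards. At 24 months against 6 months, 6 rose and 2 fell, where 19.2% of all genes were called, 10.8% upwards and 8.34% downwards. Over the whole span, at 24 months against P18, 23 rose and 1 fell, where 62.5% of all genes were called, 32.0% upwards and 30.5% downwards. The median log2 difference of the 33 genes in these comparisons was 0.42, 0.32, 0.22 and 0.75, beside medians of 0.017, 0.0029, 0.030 and -0.0051 over all genes. The comparisons share samples and are not independent of each other.

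The count of rises over the whole span depended on the scaling. With quantile normalization 14 of the 33 genes rose and 3 fell at 24 months against P18, so that 82.4% of the calls were rises, against 95.8% with the deposited size factors. That scaling moved the median of all genes in this comparison to -0.11, and the median of the 33 genes, taken relative to it, was 0.60 in place of 0.75. The counts at 24 months against 6 months rested on few libraries: 3 genes rose on leaving out 6 months replicate 2, 24 months replicate 2 or 24 months replicate 3, and 10 rose on leaving out P18 replicate 3. A single gene, 1 in place of 2, fell on leaving out any 1 of 6 months replicate 1, 6 months replicate 2, 24 months replicate 1 or 24 months replicate 2.

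**Figure D1:**
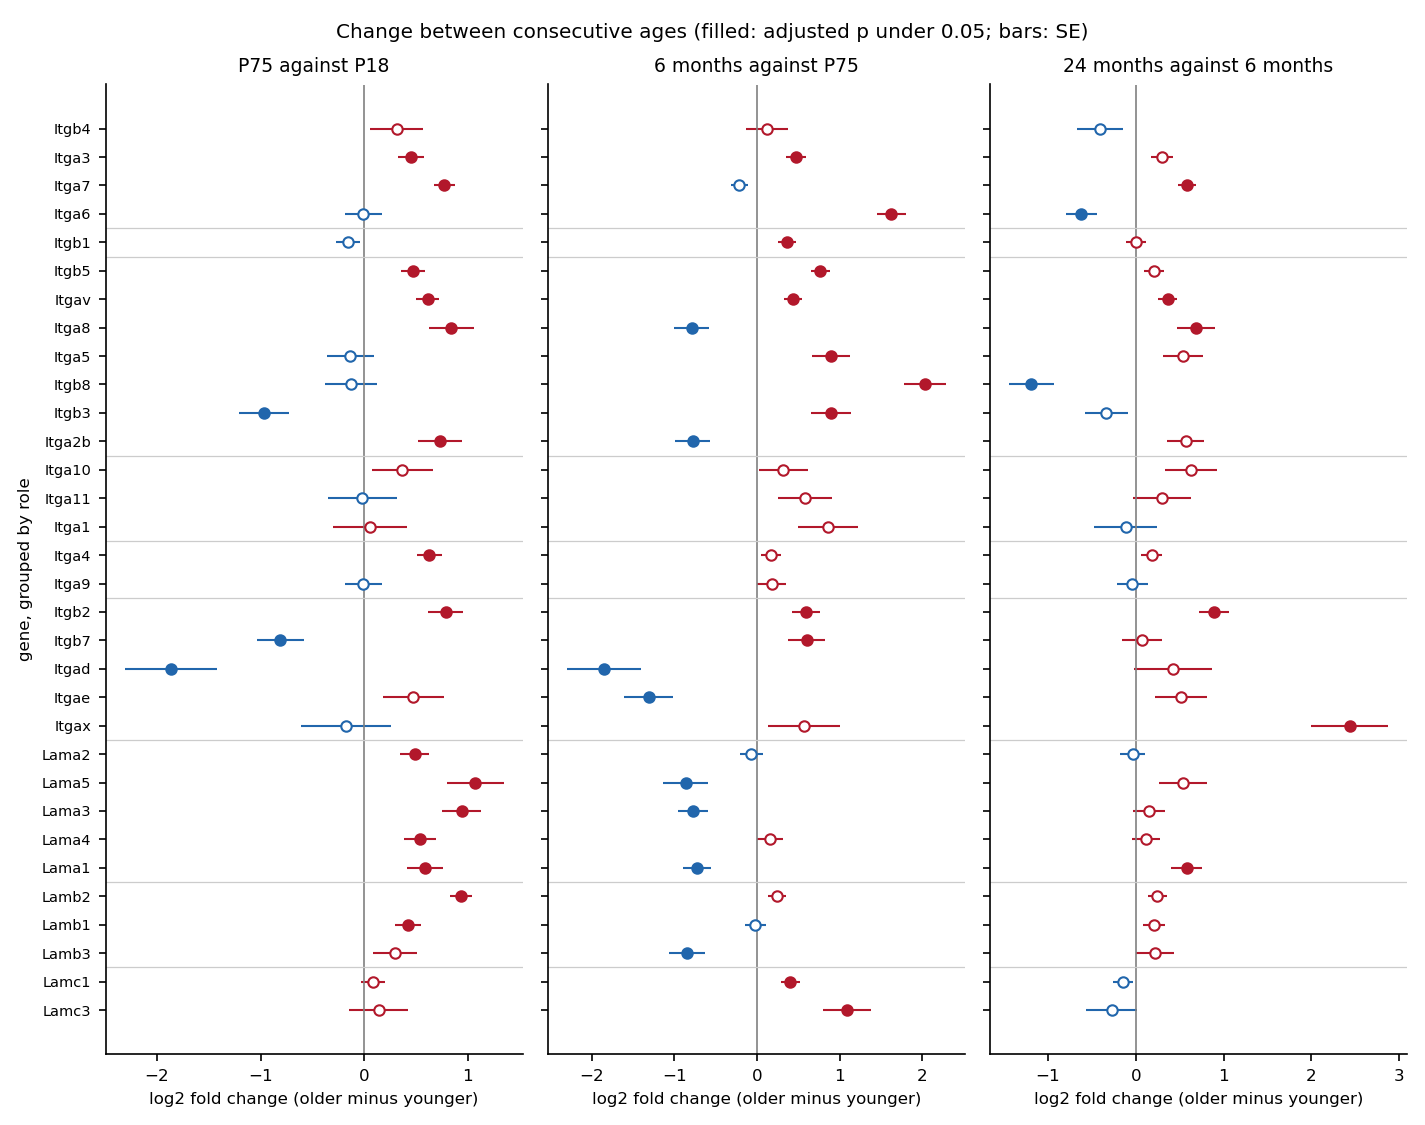
Log2 difference (x axis, older minus younger, bars ± SE from limma) of tested genes (rows, grouped by role) at each step between consecutive ages. Filled points passed an adjusted p of 0.05. Over all 33 tested genes, of which 1 is not drawn, called rises (red) outnumber called falls (blue) by 16 to 3 for the left panel, 13 to 8 for the middle and 6 to 2 for the right.

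The laminin alpha chains, which carry the domains that bind integrins and dystroglycan, were higher in young adulthood and then parted. All 5 rose at P75 against P18, where 21.7% of all genes rose. At 6 months against P75, 3 of the 5 fell, where 25.4% of all genes fell. Lama2, the chain of the laminin known from white matter, was the most abundant, with normalised counts of 194, 214 and 191 at P18, 275, 253 and 314 at P75, 336, 251 and 222 at 6 months and 241, 278 and 260.1 at 24 months. Its P75 libraries all lay above its P18 libraries, a rise of 0.49 ± 0.14 (adjusted p = 0.0103), and the later ages overlapped with P75. Lama4, a chain of vascular basement membranes, had 47.5, 44.1 and 53.2 at P18, 65.1, 77.9 and 68.5 at P75, 86.1, 80.8 and 69.1 at 6 months and 76.3, 88.7 and 90.7 at 24 months. It rose by 0.54 ± 0.16 (adjusted p = 0.0114) at P75 against P18 and no step after that passed the test, while 24 months lay 0.81 ± 0.16 (adjusted p = 0.000271) above P18, or 0.53 above it with quantile normalization.

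Lama1, Lama3 and Lama5 followed a different course, high at P75 and low again at 6 months. Lama5, a broadly expressed chain of mature basement membranes, had 41.6, 54.2 and 119 at P18, 143, 146 and 122 at P75, 60.9, 85.2 and 79.8 at 6 months and 132, 105 and 93.5 at 24 months. The P18 libraries of this gene spanned a wide range, with replicate 3 far above the other 2. It rose by 1.07 ± 0.27 (adjusted p = 0.00536) at P75 against P18 and fell by 0.87 ± 0.27 (adjusted p = 0.0144) at 6 months against P75. Lama3, known from epithelial laminin, had 59.4, 63.3 and 67.3 at P18, 124, 123 and 119 at P75, 80.4, 52.4 and 84.7 at 6 months and 71.3, 98.4 and 70.3 at 24 months. The P75 libraries lay above all libraries of the other 3 ages. Its rise at P75 against P18 was 0.94 ± 0.18 (adjusted p = 0.000769) and its fall at 6 months against P75 was 0.78 ± 0.18 (adjusted p = 0.00218). Lama1, an early chain of embryonic basement membranes, had 46.3, 37.3 and 52.2 at P18, 71.2, 59.3 and 74.1 at P75, 43.9, 37.3 and 40.9 at 6 months and 63.4, 57.3 and 62.9 at 24 months. Its P75 libraries lay above those of P18 and of 6 months, with a rise of 0.59 ± 0.17 (adjusted p = 0.013) at P75 against P18 and a fall of 0.73 ± 0.17 (adjusted p = 0.00228) at 6 months against P75. At 24 months Lama1 was again 0.58 ± 0.17 (adjusted p = 0.0298) above 6 months, without overlap between the libraries.

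Some of these alpha chain calls rested on single libraries. The P75 rise of Lama1 was lost on leaving out P18 replicate 2 (adjusted p = 0.069) or P75 replicate 3 (0.051), in a range of 0.00705 to 0.069 over 22 alternatives. That of Lama2 was lost on leaving out P75 replicate 3 (adjusted p = 0.0528), in a range of 0.00354 to 0.0528 over 22 alternatives, and that of Lama4 on leaving out P75 replicate 2 (adjusted p = 0.0512), in a range of 0.00866 to 0.0512 over 22 alternatives. The 6 month fall of Lama5 was lost on leaving out 6 months replicate 1 (adjusted p = 0.071), in a range of 0.000265 to 0.071 over 22 alternatives. The 24 month rise of Lama1 over 6 months was lost in 8 of 22 alternatives, among them leaving out any single library of either age, with adjusted p from 0.0193 to 0.102. The second principal component of all genes also alternated from age to age, and 21.1% of all tested genes had means that went up, down and up over the 3 steps, the order of Lama1, Lama3 and Lama5. The part of that component in these results was not tested.

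The 3 beta chains took different courses. Lamb2, which is found in vascular and synaptic basement membranes, had 143, 144 and 154 at P18, 286, 299 and 258 at P75, 317, 356 and 320.1 at 6 months and 356, 438 and 388 at 24 months. The P18 libraries lay close together and below every later library. It rose by 0.93 ± 0.11 (adjusted p = 8.14e-06) at P75 against P18, neither later step passed the test, and 24 months lay 1.42 ± 0.11 (adjusted p = 1.2e-08) above P18. Lamb1, the partner of the Lama2 and Lama1 chains in many tissues, had 226, 258 and 294 at P18, 392, 335 and 315 at P75, 369.7, 312 and 344 at 6 months and 359.6, 378 and 453 at 24 months. It rose by 0.42 ± 0.13 (adjusted p = 0.0133) at P75 against P18, a call lost on leaving out P18 replicate 1 (adjusted p = 0.069) or P75 replicate 1 (0.0701), in a range of 0.00348 to 0.0701 over 22 alternatives. Over the whole span Lamb1 rose by 0.61 ± 0.13 (adjusted p = 0.000457). Lamb3, an epithelial chain that pairs with Lama3, went the other way at 6 months, with 49.9, 35.03 and 58.3 at P18, 52.1, 58.4 and 63.01 at P75, 30.9, 33.7 and 30.2 at 6 months and 47.5, 34.6 and 30.6 at 24 months. Its 6 month libraries lay below all P75 libraries, a fall of 0.85 ± 0.22 (adjusted p = 0.0036).

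Of the gamma chains, Lamc1 and Lamc3 rose at 6 months against P75. Lamc1, the gamma chain of most laminins, was the most abundant, with 308, 312 and 269 at P18, 318, 315 and 311 at P75, 466, 359 and 429 at 6 months and 372, 335 and 422 at 24 months. Its 6 month libraries lay above those of P75 by 0.40 ± 0.12 (adjusted p = 0.00798). Lamc3, a less common gamma chain, had 10.7, 15.8 and 18.1 at P18, 11.02, 21.3 and 17.7 at P75, 37.4, 32.8 and 36 at 6 months and 21.8, 30.3 and 37.03 at 24 months. It was low at P18 and P75 and rose by 1.09 ± 0.29 (adjusted p = 0.00446) at 6 months against P75, with no overlap between these ages.

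The 6 month call of Lamc1 was lost on leaving out 6 months replicate 1 (adjusted p = 0.0505), in a range of 0.00297 to 0.0505 over 22 alternatives. At 24 months against P18, Lama4, Lamb1 and Lamb2 kept their rises in all alternatives, while Lama1, Lama2, Lama5, Lamc1 and Lamc3 lost theirs in 9, 5, 6, 3 and 1 of them. Markers of mural cells and fibroblasts, which make vascular basement membrane, held a summed share of 0.0086 to 0.0104% for P18, 0.0127 to 0.0141% for P75, 0.0169 to 0.0199% for 6 months and 0.0163 to 0.0197% for 24 months. Of these 13 markers 5 rose, 1 fell and 7 did not pass the test at 24 months against P18, where 32.0% of all genes rose. Their median log2 difference was 0.14, and most of the gain in the sum lay in Dcn and Vtn. Dcn had 1209 ± 81.4 normalised counts at 24 months and 211 ± 47.9 at P18 (mean ± SD, n = 3). Endothelial markers held 0.00385 to 0.00517% for P18, 0.00453 to 0.0058% for P75, 0.00445 to 0.00537% for 6 months and 0.00482 to 0.00548% for 24 months. All 13 mural and fibroblast markers and all 12 endothelial markers were detected, and their part in the laminin results was not tested.

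**Figure D2:**
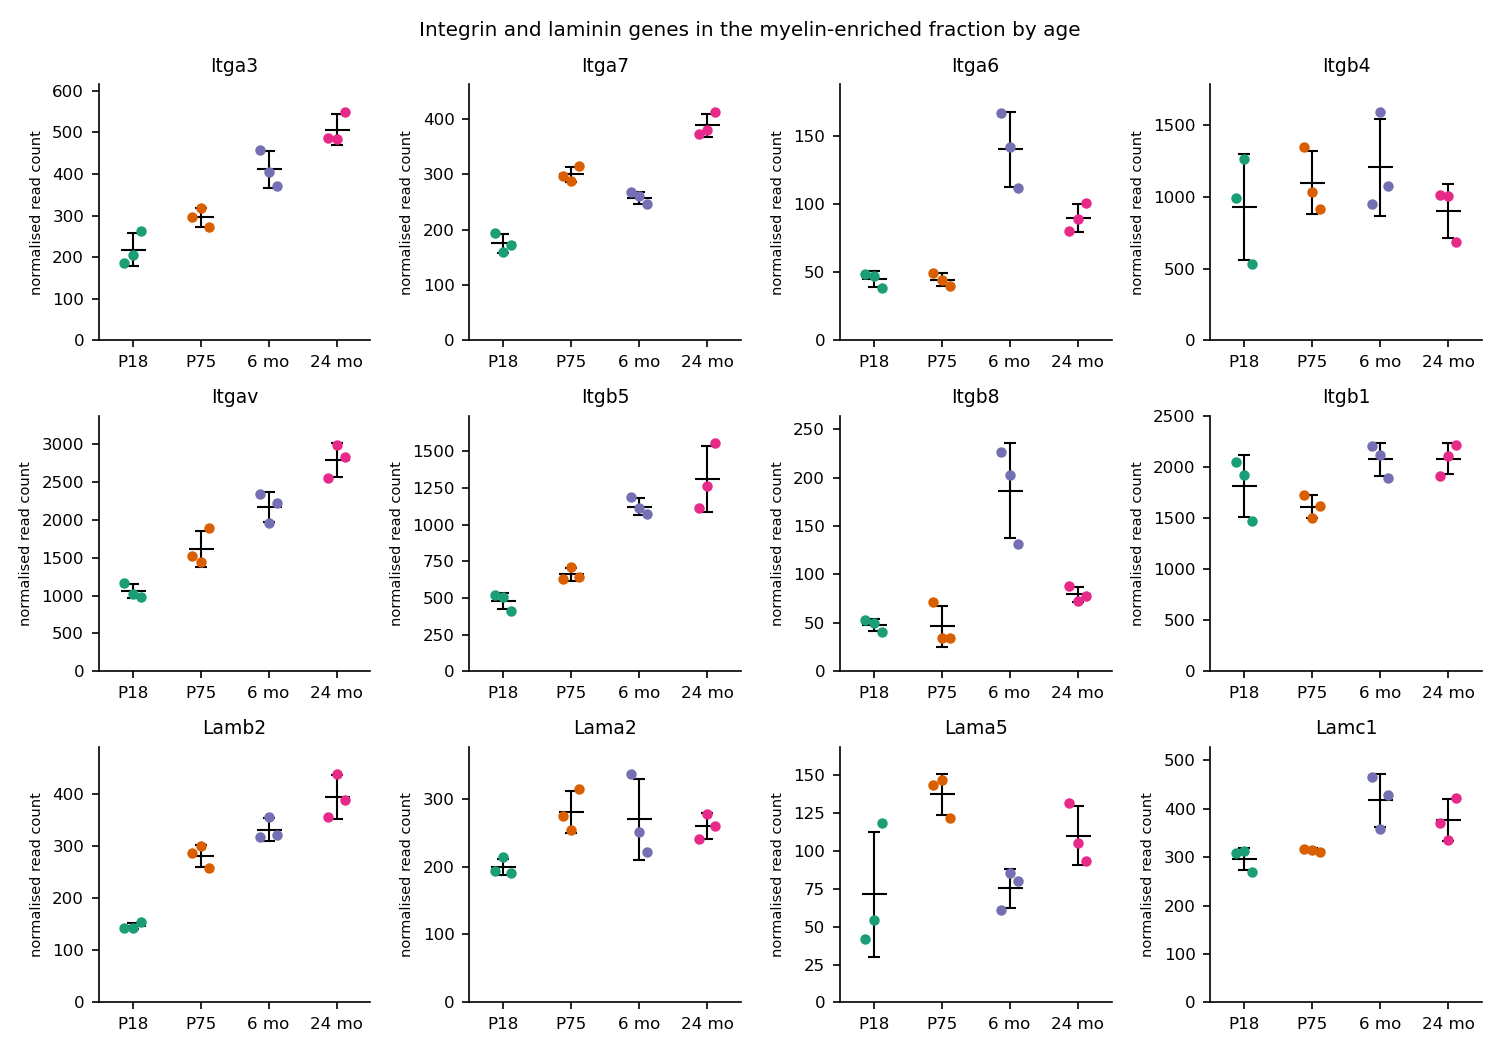
Normalised read count (y axis, each from 0) by age (x axis) for 12 of the genes. Points are single libraries, and the lines give the mean and SD of 3 libraries. Itga3, Itgav, Itgb5 and Lamb2 climb with age, Itga6 and Itgb8 peak at 6 months, and Itgb4 shows a wide spread with no step past the test.

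Of the receptors, Itgb1 came first in level. Itgb1 encodes the beta chain shared by the receptors for laminin, collagen and fibronectin. Per kilobase of exon it had 444 ± 74.7 for P18, 395 ± 27.7 for P75, 508 ± 39.5 for 6 months and 509 ± 37.01 for 24 months (normalised count per kb, mean ± SD, n = 3), the highest of the 36 genes at every age. Its normalised counts were 2047, 1921 and 1467 at P18, 1724, 1497 and 1614 at P75, 2206, 2119 and 1894 at 6 months and 1915, 2105 and 2213 at 24 months. The P18 libraries overlapped with those of every other age, and 24 months differed from P18 by 0.21 ± 0.11 (adjusted p = 0.116), which did not pass the test. The gene rose by 0.36 ± 0.11 (adjusted p = 0.0127) at 6 months against P75, a call lost on leaving out P75 replicate 2 (adjusted p = 0.0571) or 6 months replicate 1 (0.056), in a range of 0.0013 to 0.0571 over 22 alternatives.

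The laminin-binding alpha chains rose over the whole span, each with its own timing. Itga3, an alpha chain with a preference for laminins that hold Lama3 or Lama5, had normalised counts of 187, 205 and 263 at P18, 298, 318 and 272 at P75, 457, 405 and 371 at 6 months and 485, 484 and 549 at 24 months. It rose by 0.47 ± 0.13 (adjusted p = 0.00522) at 6 months against P75 and by 1.22 ± 0.13 (adjusted p = 3.81e-07) at 24 months against P18. At P75 against P18 it rose by 0.45 ± 0.13 (adjusted p = 0.00942), lost on leaving out P18 replicate 1 (adjusted p = 0.0527), in a range of 0.000527 to 0.0527 over 22 alternatives. Itga7, known as the main laminin receptor chain of muscle, had 194, 160.4 and 173 at P18, 298, 287 and 315 at P75, 267, 261 and 246 at 6 months and 372, 381 and 413 at 24 months. Each age was free of overlap with the next, and the gene rose by 0.77 ± 0.10 (adjusted p = 2.71e-05) at P75 against P18 and by 0.59 ± 0.10 (adjusted p = 0.00191) at 24 months against 6 months. Between these steps it differed by -0.22 ± 0.10 (adjusted p = 0.086) at 6 months against P75, which did not pass the test. Its means went up, down and up, as for 21.1% of all tested genes, and alternate as the second principal component does. The part of that component was not tested.

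Itga6, the alpha chain of the oligodendrocyte laminin receptor, was low at P18 and P75 and highest at 6 months, with 48.7, 47.5 and 38.2 at P18, 49.1, 44.5 and 39.8 at P75, 167, 142 and 112 at 6 months and 80.2, 88.7 and 101 at 24 months. It rose by 1.62 ± 0.18 (adjusted p = 2.37e-06) at 6 months against P75 and stood 0.99 ± 0.18 (adjusted p = 0.000127) above P18 at 24 months. The fall at 24 months against 6 months, 0.62 ± 0.18 (adjusted p = 0.0235), was lost on leaving out 6 months replicate 1 (adjusted p = 0.121), 6 months replicate 2 (0.0751), 24 months replicate 1 (0.0875) or 24 months replicate 2 (0.0735), in a range of 0.00877 to 0.121 over 22 alternatives. Itgb4, the beta chain that pairs with Itga6 alone and anchors epithelia in hemidesmosomes, had 991, 1264 and 530.3 at P18, 1347, 1034 and 919.8 at P75, 952, 1594 and 1076 at 6 months and 1012, 1011 and 686 at 24 months. The libraries of each age overlapped with those of the others, with 530.3 in P18 replicate 3 and 1264 in P18 replicate 2, and no comparison passed the test (F test adjusted p = 0.307). Within each age these libraries ranked as they did for Mbp, the gene of myelin basic protein, named here after its values were seen, which had 3686428, 5580858 and 2134344 normalised counts at P18, 1598645, 1130485 and 1067179 at P75, 1114065, 2048136 and 1185829 at 6 months and 1793465, 1476129 and 1213612 at 24 months. Any tie between them was not tested. Per kilobase Itgb4 was at 132 ± 52.9 for P18, 157 ± 31.5 for P75, 172 ± 48.5 for 6 months and 129 ± 26.8 for 24 months, and Itga6 at 4.96 ± 0.638 for P18, 4.93 ± 0.515 for P75, 15.5 ± 3.03 for 6 months and 9.96 ± 1.15 for 24 months.

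The integrins that bind the RGD motif, a short peptide signal in fibronectin, vitronectin and related ligands, held the largest gain in counts. Together the 8 genes had 1789 ± 132 for P18, 2575 ± 203 for P75, 3706 ± 261 for 6 months and 4484 ± 381 for 24 months. Most of this came from Itgav and Itgb5, whose products pair as a vitronectin receptor, with a further partner of Itgav in Itgb8, whose pair activates latent TGF-beta. Because the data for these 3 partner genes differ, the sequences around their RefSeq gene starts are shown (GRCm38.p6, 250 bases before to 50 after the start, gene strand, 5′ to 3′). Itgav lies on the plus strand at chr2:83724147-83724446, Itgb5 on the plus strand at chr16:33829415-33829714 and Itgb8 on the minus strand at chr12:119238227-119238526. Capitals mark the GC box core GGGCGG and the PU.1 core GAGGAA, on either strand.
Itgav: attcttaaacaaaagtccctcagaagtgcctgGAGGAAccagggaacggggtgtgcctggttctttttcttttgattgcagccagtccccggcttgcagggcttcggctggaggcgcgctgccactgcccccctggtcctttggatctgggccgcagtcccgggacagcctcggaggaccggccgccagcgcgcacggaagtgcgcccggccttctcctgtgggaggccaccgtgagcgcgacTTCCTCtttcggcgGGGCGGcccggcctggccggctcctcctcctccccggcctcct
Itgb5: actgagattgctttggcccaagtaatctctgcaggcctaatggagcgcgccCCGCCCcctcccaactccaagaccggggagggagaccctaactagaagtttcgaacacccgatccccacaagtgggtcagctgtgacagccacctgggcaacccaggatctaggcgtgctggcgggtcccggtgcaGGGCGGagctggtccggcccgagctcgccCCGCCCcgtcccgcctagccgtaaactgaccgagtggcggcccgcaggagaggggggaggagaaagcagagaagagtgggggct
Itgb8: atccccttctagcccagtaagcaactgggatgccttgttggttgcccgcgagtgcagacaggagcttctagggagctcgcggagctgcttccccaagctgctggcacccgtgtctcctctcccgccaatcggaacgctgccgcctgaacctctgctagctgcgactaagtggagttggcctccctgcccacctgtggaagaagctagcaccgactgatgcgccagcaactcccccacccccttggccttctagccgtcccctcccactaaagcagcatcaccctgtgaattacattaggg

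The Itgb5 window held 3 GC boxes and the Itgav window 1, beside 2 cores of PU.1, a myeloid factor, and the Itgb8 window held neither. Over 32851 mouse promoter windows of this length, 35.7% held a GC box, 28.3% a PU.1 core and 13.6% the TATA box core TATAAA. Windows were at hand for 22 of the 36 genes (25 windows), of which 11 windows held a GC box, 13 a PU.1 core and 0 a TATA core. In the printed windows no match overlaps another, and a match describes the letters of the window and shows no binding.

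Itgav stepped up at each age, with normalised counts of 1159.8, 1023 and 981 at P18, 1518, 1448 and 1890.4 at P75, 2332, 1955 and 2225 at 6 months and 2549.9, 2991 and 2826 at 24 months. The libraries of each age lay above all libraries of the age before. It rose by 0.61 ± 0.11 (adjusted p = 0.000334) at P75 against P18, by 0.43 ± 0.11 (adjusted p = 0.00345) at 6 months against P75 and by 0.36 ± 0.11 (adjusted p = 0.0296) at 24 months against 6 months, and by 1.40 ± 0.11 (adjusted p = 1.45e-08) over the whole span. The last step was lost on leaving out 6 months replicate 2 (adjusted p = 0.126), 24 months replicate 2 (0.122) or 24 months replicate 3 (0.0719), in a range of 0.0094 to 0.126 over 22 alternatives. Itgb5 had 518, 504 and 414 at P18, 631, 710.2 and 641 at P75, 1185, 1113 and 1070.4 at 6 months and 1111, 1261 and 1556 at 24 months. Its libraries at 6 and 24 months overlapped, and both ages lay above P75 and P18. It rose by 0.47 ± 0.12 (adjusted p = 0.00431) at P75 against P18, by 0.76 ± 0.12 (adjusted p = 5.22e-05) at 6 months against P75 and by 1.44 ± 0.12 (adjusted p = 2.34e-08) at 24 months against P18.

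Itgb8 had a single high age, with 53.5, 49.7 and 41.2 at P18, 71.2, 34.3 and 34.3 at P75, 226, 202 and 131 at 6 months and 88.2, 72.4 and 77.8 at 24 months. Every 6 month library lay above every library of the other ages. It rose by 2.03 ± 0.25 (adjusted p = 8.17e-06) at 6 months against P75 and fell by 1.19 ± 0.25 (adjusted p = 0.00592) at 24 months against 6 months. The remaining rise at 24 months against P18, 0.72 ± 0.25 (adjusted p = 0.0214), was lost with quantile normalization (adjusted p = 0.128), and on leaving out P18 replicate 3 (0.0589) or 24 months replicate 1 (0.0706), in a range of 0.00463 to 0.128 over 22 alternatives. Itgb8 and Itga6 were the 2 genes of the 33 that rose at 6 months against P75 and fell at 24 months against 6 months. Their means went down, up and down over the 3 steps, an order that also held for 20.5% of all tested genes and alternates as the second principal component does, whose part in these results was not tested.

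The other RGD-binding chains were less abundant. Itga5, the fibronectin receptor chain, had 26.1, 33.9 and 54.2 at P18, 34.1, 37.1 and 28.7 at P75, 69.9, 64.8 and 53.5 at 6 months and 100.1, 81.1 and 92.6 at 24 months. The 24 month libraries lay above all others, and the gene rose by 0.89 ± 0.23 (adjusted p = 0.0036) at 6 months against P75 and by 1.30 ± 0.23 (adjusted p = 0.00011) at 24 months against P18. Itga8, the nephronectin receptor chain, had 78.4, 49.7 and 110.5 at P18, 147, 125 and 137 at P75, 84.5, 63.9 and 88.5 at 6 months and 124, 125 and 131 at 24 months, high at P75 and 24 months. It rose by 0.84 ± 0.22 (adjusted p = 0.0054) at P75 against P18, or by 0.54 without P18 replicate 2, and fell by 0.79 ± 0.22 (adjusted p = 0.00567) at 6 months against P75. It rose again by 0.69 ± 0.22 (adjusted p = 0.0358) at 24 months against 6 months, lost with no filter on low values (adjusted p = 0.0559) or quantile normalization (0.0563), and on leaving out 6 months replicate 1 (0.0734), 6 months replicate 2 (0.144), 24 months replicate 1 (0.0806), 24 months replicate 2 (0.0908) or 24 months replicate 3 (0.0837), in a range of 0.00569 to 0.144 over 22 alternatives.

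Itga2b and Itgb3 encode the 2 chains of the platelet fibrinogen receptor and moved in opposite directions at P75. Itga2b had 24.9, 22.6 and 37.2 at P18, 47.1, 53.8 and 39.8 at P75, 28.4, 27.5 and 24.3 at 6 months and 42.6, 38.9 and 38.9 at 24 months. It fell by 0.78 ± 0.21 (adjusted p = 0.00595) at 6 months against P75, after a rise at P75 against P18 of 0.73 ± 0.21 (adjusted p = 0.0118) that was lost on leaving out P18 replicate 2 (adjusted p = 0.0584) or P75 replicate 2 (0.0549), in a range of 0.00216 to 0.0584 over 21 alternatives. Itgb3, which also pairs with Itgav, had 73.7, 63.3 and 38.2 at P18, 34.1, 23.2 and 28.7 at P75, 60.9, 51.5 and 48.7 at 6 months and 33.7, 51.9 and 42.6 at 24 months. Its P75 libraries lay below those of P18 and of 6 months, with a fall of 0.97 ± 0.24 (adjusted p = 0.00492) at P75 against P18 and a rise of 0.89 ± 0.24 (adjusted p = 0.00586) at 6 months against P75. Like the zigzag of the laminin alpha chains, these orders alternate as the second principal component of all genes does, up, down and up for Itga2b and Itga8 and the reverse for Itgb3, as for Itgb8 and Itga6. The component's part in these results was not tested.

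The collagen-binding chains had the lowest summed counts of the role groups, at 129 ± 35.98 at 24 months and 58.2 ± 15.9 at P18 (mean ± SD, n = 3). Itga10, a cartilage collagen receptor chain, had 21.4, 29.4 and 34.1 at P18, 38.1, 35.2 and 35.4 at P75, 34.9, 43.5 and 61.3 at 6 months and 41.6, 78.9 and 107 at 24 months. The 24 month libraries were spread over a wide range above all P18 libraries, with a rise of 1.32 ± 0.29 (adjusted p = 0.000946) at 24 months against P18. Of its annotated exon bases, 33.5% are shared with Gm42957 on the same strand, so its reads may belong in part to that transcript. Itga11, a collagen receptor chain of fibroblasts, had 10.7, 11.3 and 19.1 at P18, 17.04, 16.7 and 7.74 at P75, 18.7, 22.2 and 19.5 at 6 months and 17.8, 28.1 and 30.6 at 24 months. It rose by 0.86 ± 0.33 (adjusted p = 0.0317) at 24 months against P18 although 1 P18 library lay within the 24 month range, and the call was lost with quantile normalization (adjusted p = 0.128), and on leaving out P18 replicate 1 (0.103), P18 replicate 2 (0.093), 24 months replicate 2 (0.0969) or 24 months replicate 3 (0.114), in a range of 0.0103 to 0.128 over 21 alternatives. Its F test did not pass (adjusted p = 0.0526). Itga1, a collagen and laminin receptor chain, ran between 9.04 and 42.25 normalised counts over the 12 libraries. It differed between ages by the F test (adjusted p = 0.0483) with no single comparison past the threshold.

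Itga4, whose product binds VCAM-1 and fibronectin and is the target of natalizumab in multiple sclerosis, had 97.4, 97.2 and 118 at P18, 163, 155 and 164 at P75, 201, 175 and 166 at 6 months and 199, 199 and 217 at 24 months. All P18 libraries lay below all later ones, and the gene rose by 0.63 ± 0.12 (adjusted p = 0.000663) at P75 against P18 and by 0.98 ± 0.12 (adjusted p = 2.89e-06) at 24 months against P18. Of its exon bases, 8.0% are shared with Cerkl on the opposite strand, and the strand setting of the counting is not given in the sources used here. Itga9, a related chain that binds tenascin-C, ran between 66.1 and 98.1 normalised counts with overlap between all ages, and no comparison passed the test (F test adjusted p = 0.678).

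The leukocyte integrins, some of which are made by microglia in brain, held the largest estimated rise (Itgax) and the largest fall (Itgad) of the 33 genes over the whole span. Itgb2, the beta chain that pairs with Itgal, Itgax and Itgad, rose at every step, with normalised counts of 41.6, 42.9 and 39.2 at P18, 60.1, 80.7 and 76.3 at P75, 123, 113 and 91.5 at 6 months and 168, 202 and 243 at 24 months. No library overlapped with another age. The rises were 0.79 ± 0.17 (adjusted p = 0.00157) at P75 against P18, 0.59 ± 0.17 (adjusted p = 0.00816) at 6 months against P75 and 0.89 ± 0.17 (adjusted p = 0.00307) at 24 months against 6 months, and 2.27 ± 0.17 (adjusted p = 1.03e-08) over the whole span. Itgax, which encodes CD11c, a marker of activated microglia and dendritic cells, was near the detection limit until 24 months, with 5.94, 5.65 and 2.01 at P18, 2, 6.49 and 3.32 at P75, 6.50, 6.21 and 4.87 at 6 months and 23.8, 41.1 and 47.2 at 24 months. These values stood for 24, 38 and 51 reads at 24 months, against 2 to 8 reads in each younger library. It rose by 2.44 ± 0.44 (adjusted p = 0.00222) at 24 months against 6 months and by 2.83 ± 0.44 (adjusted p = 3.01e-05) at 24 months against P18, or by 1.83 with a pseudocount of 8, and the added pseudocount understates the change of so low a gene.

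Since Itgax stood out at 24 months, its start is shown on the same terms (plus strand, chr7:128129300-128129599). It held none of the 3 motifs searched, so no letter is in capitals.
Itgax: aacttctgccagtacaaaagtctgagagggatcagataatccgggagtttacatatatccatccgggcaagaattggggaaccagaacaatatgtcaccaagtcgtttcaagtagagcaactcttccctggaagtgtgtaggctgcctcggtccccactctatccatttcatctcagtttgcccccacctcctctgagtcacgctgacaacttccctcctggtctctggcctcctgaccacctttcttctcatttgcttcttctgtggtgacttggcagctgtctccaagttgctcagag

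The summed share of microglial markers climbed at each age, as Itgb2 did, though fewer single markers rose at the middle step. Itgax was high at 24 months alone. The summed share of 15 microglial markers was 0.0325 to 0.0359% for P18, 0.0483 to 0.0539% for P75, 0.0565 to 0.0657% for 6 months and 0.0798 to 0.102% for 24 months. Of the 15, 14 rose at 24 months against P18, where 32.0% of all genes rose. By step, 10 rose and 0 fell at P75 against P18, where 21.7% of all genes rose. At 6 months against P75 5 rose, 1 fell and 9 did not pass the test, where 27.1% of all genes rose. At 24 months against 6 months 8 rose and 0 fell, where 10.8% of all genes rose. The share of 11 markers of activated microglia, counted without Itgax, was 0.135 to 0.17% for P18, 0.176 to 0.2% for P75, 0.234 to 0.243% for 6 months and 0.243 to 0.323% for 24 months. All 11 rose at 24 months against P18, among them Cst7, which passed the filter on low values only through its 24 month libraries. At 24 months against 6 months 8 of the 11 rose, 0 fell and 3 did not pass the test, where 10.8% of all genes rose. Most of the summed share was Apoe, which astrocytes also express, with 44766 ± 5695 normalised counts at 24 months and 29802 ± 3063 at P18. Cst7 had 4.47 ± 1.34 for P18, 4.85 ± 3.56 for P75, 7.86 ± 2.36 for 6 months and 91.2 ± 1.42 for 24 months (normalised count, mean ± SD, n = 3), and Clec7a had 10.5 ± 3.63 for P18, 12.1 ± 0.0700 for P75, 19.4 ± 8.58 for 6 months and 152 ± 22.5 for 24 months. Markers of other leukocytes took 0.00133 to 0.00204% of counts at P18 and 0.00148 to 0.00194% at P75. They took 0.00122 to 0.00143% at 6 months and 0.00167 to 0.00264% at 24 months. Of the 6 tested, 3 rose and 0 fell at 24 months against 6 months, and 1 rose and 1 fell at 24 months against P18. The T cell marker Cd3e had a mean of 4.64 normalised counts at 24 months. No marker of these lists was at 0 in all libraries. Their part in the integrin results was not tested.

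Itgad, which encodes CD11d, ran against Itgb2 and Itgax, with 71.3, 104 and 159.7 at P18, 15.03, 40.8 and 36.5 at P75, 8.12, 8.88 and 4.87 at 6 months and 21.8, 6.49 and 6.48 at 24 months. Its P18 libraries lay above all others. It fell by 1.87 ± 0.45 (adjusted p = 0.0033) at P75 against P18 and fell by 1.86 ± 0.45 (adjusted p = 0.00239) at 6 months against P75, and fell by 3.30 ± 0.45 (adjusted p = 7.62e-06) over the whole span, the 1 fall among the 33 genes there. Per kilobase of exon Itgad stood at 2.57 at 24 months, beside 67.0 for its partner Itgb2, and at 24.8 at P18, beside 13.5 for Itgb2. Of its exon bases, 19.7% are shared with other annotated genes. The pseudogene Gm17831 on the same strand shares 7.3%, and on the opposite strand 4931431B13Rik shares 8.6%, Gm39091 2.3% and Cox6a2 1.6%. Cox6a2, a muscle and neuron subunit of cytochrome oxidase named here after its values were seen, had 356 ± 64.2 for P18, 236 ± 44.9 for P75, 176 ± 49.4 for 6 months and 233 ± 26.8 for 24 months. It was also highest at P18, and fell by 0.60 ± 0.20 (adjusted p = 0.0139) at 24 months against P18. The values are counts by gene and the strand setting is not given, so reads in the shared bases cannot be separated from the others.

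Itgae and Itgb7, the chains of the receptor by which lymphocytes hold on to E-cadherin, followed neither Itgb2 nor Itgad. Itgae had 21.4, 15.8 and 15.1 at P18, 27.1, 24.1 and 22.1 at P75, 5.69, 10.7 and 12.7 at 6 months and 14.9, 14.1 and 12.03 at 24 months. It fell by 1.31 ± 0.30 (adjusted p = 0.00151) at 6 months against P75. Itgb7, which also pairs with Itga4, had 51.1, 64.4 and 73.3 at P18, 31.1, 31.5 and 44.2 at P75, 47.1, 61.2 and 53.5 at 6 months and 80.2, 47.6 and 47.2 at 24 months. It fell by 0.81 ± 0.23 (adjusted p = 0.00973) at P75 against P18 and rose by 0.60 ± 0.23 (adjusted p = 0.037) at 6 months against P75, a rise lost with no filter on low values (adjusted p = 0.0596), quantile normalization (0.0619) or a replicate block (0.051), and on leaving out P75 replicate 1 (0.112), P75 replicate 2 (0.112), 6 months replicate 2 (0.126) or 6 months replicate 3 (0.0743), in a range of 0.0195 to 0.126 over 22 alternatives. Neither gene passed the test at 24 months against P18, with -0.32 ± 0.30 (adjusted p = 0.363) for Itgae and -0.14 ± 0.23 (adjusted p = 0.618) for Itgb7.

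**Figure D3:**
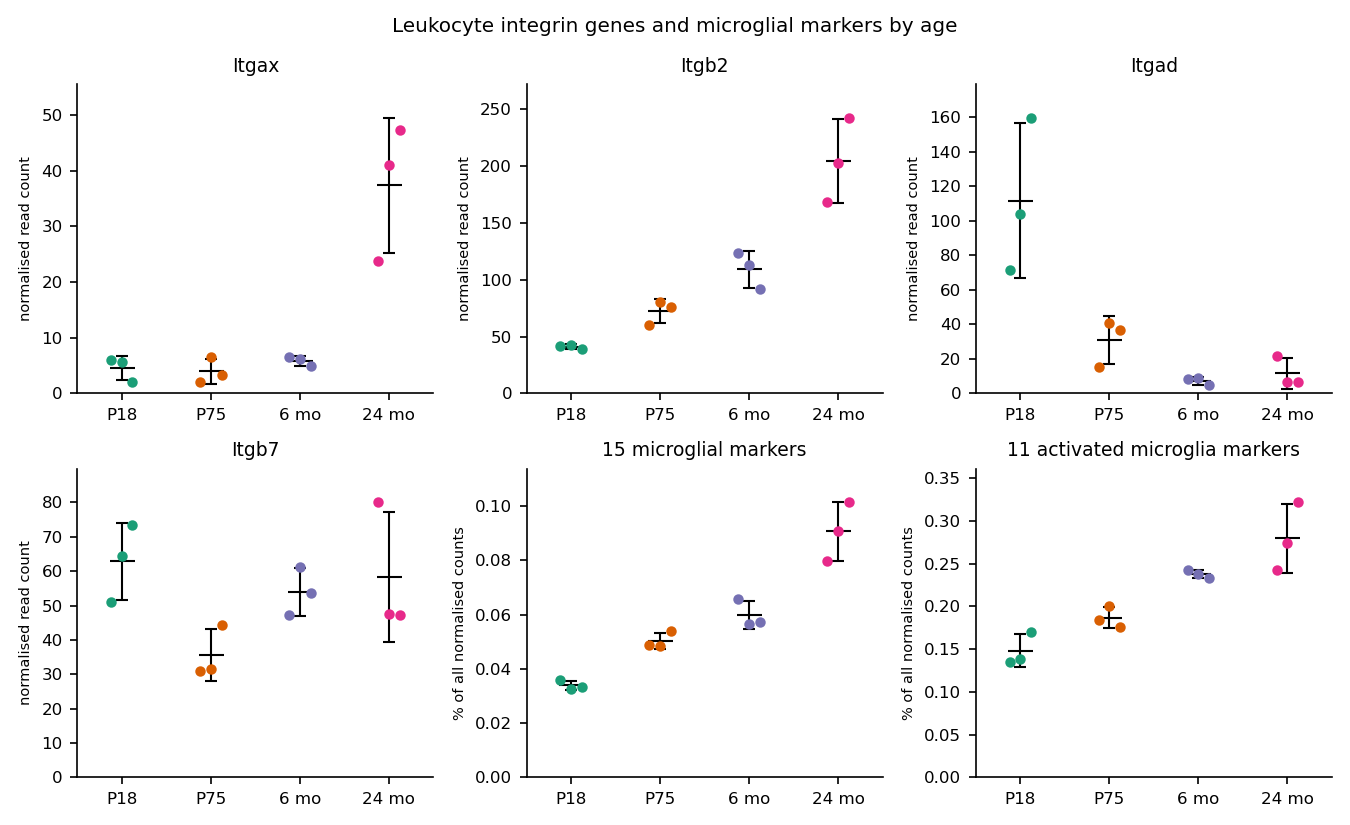
Normalised read counts of Itgax, Itgb2, Itgad and Itgb7, and the summed share of all normalised counts (%) taken by 15 microglial and 11 activated microglia markers, by age (x axis). Points are libraries, lines the mean and SD of 3. Itgax stays at 6.50 or below until 24 months and Itgad falls after P18, while Itgb2 and both marker shares climb.

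Compared per kilobase of exon, which allows levels of different genes to be set side by side, a few chains made up most of the integrin RNA. Itgb1 was followed over the mean of all samples by Itgb5, with 135 ± 15.9 for P18, 186 ± 12.1 for P75, 316 ± 16.2 for 6 months and 368 ± 63.8 for 24 months, and Itgav, with 98.2 ± 8.70 for P18, 151 ± 22.1 for P75, 202 ± 18.1 for 6 months and 259.6 ± 20.7 for 24 months. At P18 Itgb4 and Itgb5 lay within each other's SD and both means were above that of Itgav, and at P75 Itgb4 and Itgav lay within each other's SD, whereas at 24 months Itgb5 and Itgav lay above Itgb4. Itga3 led the laminin-binding alpha chains, with 38.2 ± 7.02 for P18, 51.8 ± 4.04 for P75, 71.97 ± 7.65 for 6 months and 88.7 ± 6.47 for 24 months. Among the laminins Lamb2 was at 24.1 ± 1.01 for P18, 46.2 ± 3.51 for P75, 54.4 ± 3.56 for 6 months and 64.7 ± 6.81 for 24 months, Lamc1 at 35.8 ± 2.85 for P18, 38.02 ± 0.432 for P75, 50.5 ± 6.57 for 6 months and 45.5 ± 5.28 for 24 months and Lamb1 at 26.1 ± 3.46 for P18, 35.01 ± 4.02 for P75, 34.4 ± 2.93 for 6 months and 40.02 ± 4.96 for 24 months. The alpha chains lay lower, led by Lama2 with 12.2 ± 0.757 for P18, 17.2 ± 1.89 for P75, 16.5 ± 3.64 for 6 months and 15.9 ± 1.14 for 24 months. At P18 Lamc1 was above Lamb2, and at 24 months Lamb2 was above Lamc1, by more than the SD in each case.

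**Figure D4:**
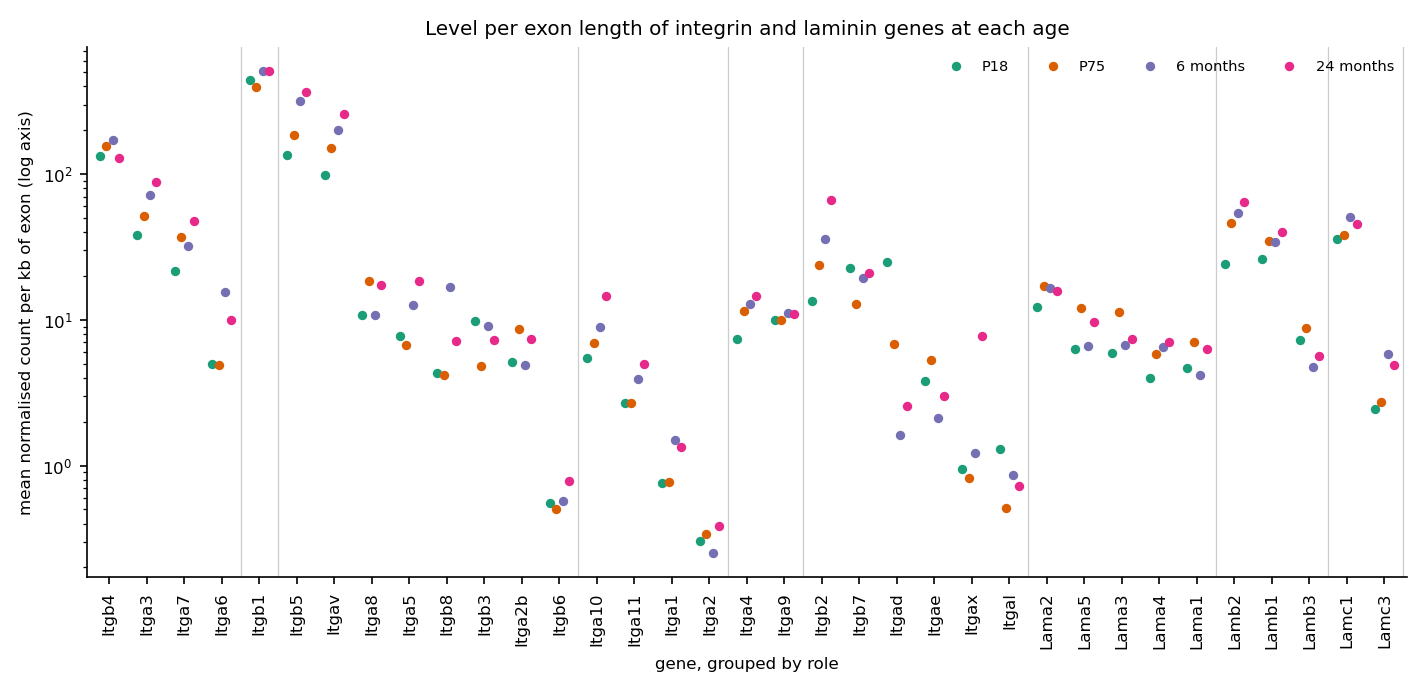
Mean normalised count per kilobase of exon (y axis, log scale) of the 36 genes but 1 (x axis, grouped by role) at each age (colour, 3 libraries each). Itgb1 stands highest, at 395 to 509, and Itga2 lowest, at 0.250 to 0.384.

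Lists of genes that work with integrins went separate ways over the whole span. Among 28 cytoplasmic adaptors and kinases, 12 fell and 1 rose at P75 against P18, where 18.7% of all genes fell and 21.7% rose. At 6 months against P75 2 fell and 3 rose, where 25.4% of all genes fell and 27.1% rose. At 24 months against P18 16 fell and 2 rose (1 rose without 24 months replicate 1), where 30.5% of all genes fell and 32.0% rose. Their median log2 difference over the whole span was -0.31. Parvb, an actin-linking partner of integrin-linked kinase, had 1438 ± 156 for P18, 270.4 ± 58.97 for P75, 294 ± 17.3 for 6 months and 205 ± 19.5 for 24 months (normalised count, mean ± SD, n = 3) and fell by 2.43 ± 0.14 (adjusted p = 2.3e-08) at P75 against P18. Fyn, a kinase that couples integrins to myelination signals in oligodendrocytes, had 5807 ± 72.2 for P18, 2907 ± 209 for P75, 2701 ± 129 for 6 months and 2292 ± 9.60 for 24 months and fell by 1.001 ± 0.077 (adjusted p = 2.18e-07). Kank1, which binds talin, fell by 1.53 ± 0.12 (adjusted p = 1.75e-07), and Lims2, a partner of integrin-linked kinase, fell by 1.36 ± 0.15 (adjusted p = 5.14e-06) in the same comparison. The 2 that rose over the whole span, named after their values were seen, were Ilk, the kinase-like core of that complex, and Vcl, which encodes the actin linker vinculin.

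The lists of other integrin ligands and of basement membrane and dystroglycan genes held more rises than falls. Of 21 other integrin ligands, 16 rose and 2 fell at 24 months against P18, with a median of 0.89. Spp1, an RGD ligand also known as osteopontin and listed among the activated microglia markers, had 664 ± 39.6 for P18, 1853 ± 157 for P75, 2328 ± 191 for 6 months and 3774 ± 85.6 for 24 months and rose by 2.51 ± 0.087 (adjusted p = 1.01e-11). Vtn, the ligand of the Itgav and Itgb5 pair and also a mural cell marker here, had 331 ± 36.5 for P18, 558 ± 51.8 for P75, 1048 ± 38.9 for 6 months and 1017 ± 173 for 24 months and rose by 1.61 ± 0.12 (adjusted p = 1.04e-08). Mfge8, a further ligand of that pair which bridges phagocytes to dying cells, rose by 1.75 ± 0.14 (adjusted p = 1.8e-08), and Nov, a matricellular ligand, by 1.64 ± 0.13 (adjusted p = 1.48e-08). Of 22 genes of basement membrane and the dystroglycan complex, 14 rose and 4 fell, with a median of 0.53. Bcam, which binds Lama5, rose by 1.82 ± 0.15 (adjusted p = 2.79e-08), Sgce, a sarcoglycan, by 1.32 ± 0.11 (adjusted p = 2.22e-08) and Large, which makes the laminin-binding sugar on dystroglycan, by 1.24 ± 0.10 (adjusted p = 3.58e-08). Over all genes 32.0% rose and 30.5% fell in that comparison. The share of mature oligodendrocyte markers, most of it Mbp, was lower at every later age than at P18, and its part in the fall of the adaptors was not tested.

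**Figure D5:**
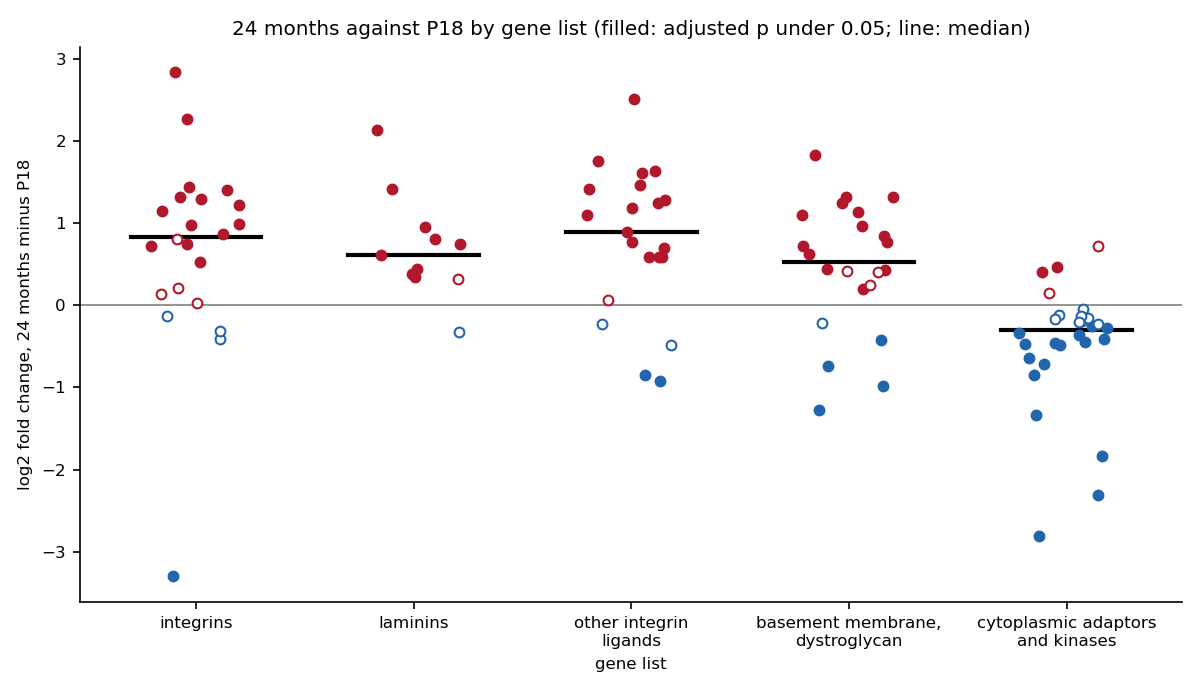
Log2 difference at 24 months minus P18 (y axis) of each tested integrin and laminin gene and of the genes in 3 related lists (x axis). Filled points passed an adjusted p of 0.05 (limma) and black lines are medians: 0.83 for integrins, 0.61 for laminins, 0.89 for ligands, 0.53 for basement membrane and dystroglycan genes and -0.31 for adaptors and kinases.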

How the data were processed

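The deposited signal values are gene read counts that the authors divided by 1 size factor for each sample. The submitters' processing notes name mm9 as the mouse build and TopHat, HTSeq and DESeq as tools, with no version. The RNA extraction, library kit, strand setting of the counting and any batch are not given in the sources used here. Within a tolerance of 0.0061, values below 3000 were whole multiples of 1 step per sample in 100% of cases, so whole reads were recovered for the count tests run as alternatives. Depth was 20299052 to 27214385 reads, and 1 read is the smallest unit behind each value.

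Values were analysed as log2(value + 1) with limma 3.58.1 (R 4.3.3; trend option on), for genes with a value of at least 10 in at least 3 of 12 samples (14987 of 21937). All 12 samples in 4 age groups shared 1 estimate of the spread. The 4 comparisons (each age against the one before, and 24 months against P18) and a moderated F test over the consecutive steps were two-sided, with Benjamini-Hochberg adjustment over all tested genes and a threshold of 0.05. The fit was tested on simulated data.

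Genes were chosen by symbol, with 1 matching symbol left out by the rule. The members and the role, pathway and marker lists were chosen with earlier results of these data known. Genes past the threshold with an absolute log2 difference of at least 0.5, and the most abundant of each role group, are given by sample, except 1 gene that enters sums and counts and is not reported here. From each pathway list the 4 genes with the lowest adjusted p are named. Alternatives were pseudocounts of 0.5 and 8, no filter, a filter at 50, TMM, quantile normalization, edgeR 4.0.16 and DESeq2 1.42.0 on recovered reads, a replicate block, fits of 2 ages only, and leaving out each library. Exon lengths and overlaps come from GENCODE M21, and promoter windows from RefSeq on GRCm38.p6. No coordinates of genes on mm9 were used.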

Additional observations from a re-analysis of the deposited data

How the results depend on the processing

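Of 72 gene and comparison pairs called among the 33 genes, 48 kept their call in every alternative that tested the gene, 24 lost it in at least 1, and 0 changed sign. Calls lost numbered 12 with quantile normalization, 5 without a filter on low values, 3 with only the 2 ages in the fit, 2 with edgeR, 2 with DESeq2 and 0 with TMM or with either pseudocount. With quantile normalization the genes higher at 24 months than at P18 numbered 14 in place of 23 and those lower 3 in place of 1. With only the 2 ages in the fit, 10 in place of 6 rose at 24 months against 6 months, where the spread is estimated from fewer samples. The cause of these shifts was not tested. Leaving out 1 library gave 14 to 16 rises and 3 to 4 falls at P75 against P18, 10 to 14 rises and 7 to 8 falls at 6 months against P75, 3 to 10 rises and 1 to 2 falls at 24 months against 6 months, 19 to 24 rises and 1 to 2 falls at 24 months against P18, and 28 to 30 genes that differed at any age. Deviations of same-numbered libraries from their age means gave r from -0.18 to 0.16 over 18 pairs. Pairs of unlike number gave -0.15 to 0.19 over 36 pairs. Between P75 and 6 months, same numbers gave 0.15, 0.093 and 0.16, and unlike numbers -0.13 to -0.028. Other pairs of ages did not share this. Same numbers gave only negative r between P18 and P75, between P75 and 24 months and between 6 and 24 months. They gave r of both signs between P18 and 6 months and between P18 and 24 months. Since the deviations are taken from means of only 3 libraries, these r cannot settle whether the numbers pair the samples. A fit with the replicate number as a block gave 16 rises and 3 falls at P75 against P18, 12 and 8 at 6 months against P75, 6 and 2 at 24 months against 6 months and 22 and 1 at 24 months against P18, with 29 genes at any age. With 3 samples an age and some genes under 50 reads, small differences in the lowly expressed genes were not detectable.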

Other observations

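The genes of dystroglycan and netrin-4 had their highest mean at 6 months, as did Itgb8 and Itga6, in an order of means (down, up and down) that 20.5% of all tested genes had. Dag1, which encodes dystroglycan, the main laminin receptor that is not an integrin, had normalised counts of 119 ± 6.68 for P18, 74.5 ± 17.5 for P75, 525 ± 106 for 6 months and 258 ± 48.1 for 24 months (mean ± SD, n = 3). It fell by 0.69 ± 0.18 (adjusted p = 0.0054) at P75 against P18, rose by 2.81 ± 0.18 (adjusted p = 2.33e-08) at 6 months against P75 and fell by 1.02 ± 0.18 (adjusted p = 0.00195) at 24 months against 6 months. Ntn4, a laminin-related netrin that binds laminin gamma chains, had 18.7 ± 0.768 for P18, 12.8 ± 2.02 for P75, 94.7 ± 20.1 for 6 months and 59.01 ± 7.62 for 24 months and rose by 2.79 ± 0.21 (adjusted p = 8.01e-08) at 6 months against P75. It fell by 0.66 ± 0.21 (adjusted p = 0.036) at 24 months against 6 months, a call lost with no filter on low values (adjusted p = 0.0558), and on leaving out 6 months replicate 1 (0.177), 6 months replicate 2 (0.0547), 6 months replicate 3 (0.054), 24 months replicate 1 (0.0971) or 24 months replicate 2 (0.129), in a range of 0.0142 to 0.177 over 22 alternatives.

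Of 9 tested partners and relatives outside the families, 6 rose and 1 fell at 24 months against P18, or 2 fell with quantile normalization or without P18 replicate 3. In that comparison 32.0% of all genes rose and 30.5% fell. Cd151, a tetraspanin that binds laminin receptors, had 201 ± 40.1 for P18, 271 ± 13.6 for P75, 545 ± 28.8 for 6 months and 549.6 ± 37.7 for 24 months and rose by 1.01 ± 0.12 (adjusted p = 7.65e-06) at 6 months against P75. Cd47, a partner of Itgav and a signal against phagocytosis, had 397 ± 21.8 for P18, 508 ± 46.6 for P75, 699 ± 25.7 for 6 months and 796 ± 85.5 for 24 months and rose by 0.46 ± 0.10 (adjusted p = 0.000963) at 6 months against P75. The 1 gene that fell was Tspan2, a tetraspanin of oligodendrocytes, with 10805 ± 2631 for P18, 5740.2 ± 474 for P75, 6002 ± 753 for 6 months and 4369 ± 148 for 24 months and a fall of 1.27 ± 0.15 (adjusted p = 1.31e-06).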
